A study of Caenorhabditis elegans with 2 samples.

Results

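The genes described here encode 8 transcription factors of the molting cycle of Caenorhabditis elegans: the nuclear receptors nhr-23, nhr-25 and nhr-85, the membrane-bound factors myrf-1 and myrf-2, the Grainyhead factor grh-1, the zinc finger factor blmp-1 and the BED zinc finger factor bed-3. They were chosen by name, not by a measured value but with earlier results of these data known, from the 19973 protein-coding genes on the 6 nuclear chromosomes. For each, the summits of the authors' peaks for the Schnurri-type zinc finger protein SMA-9 were collected inside the annotated gene or within 3000 bp of either end (WBcel235, called ce11 by the authors). Chromatin immunoprecipitation was made with an antibody to GFP from strain LW1254, which carries the transgene jjIs1254 with sma-9C2::gfp and unc-119(+) on an unc-119(ed4) background. The animals were L2 hermaphrodites taken 22 h after the synchronized L1 stage, and 2 biological replicates formed the 1 group of the study. Whole animals were used, so the lists sum all cell types and do not tell in which cells a site was occupied. The promoter behind the tagged protein is not named in the sources used here, worms without the tag and the control experiment were not analysed here, and 1 group allows no comparison of conditions.

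A C. elegans larva molts between larval stages, each time making a new cuticle under the old one and shedding the old one. Transcription of many epidermal genes rises and falls once per larval stage, and nuclear receptors related to the insect ecdysone cascade stand high in the network behind this rhythm. SMA-9 acts with the Smad proteins of the DBL-1 pathway, a BMP-type signal that sets body size and cuticle collagen expression, and also acts in the postembryonic mesoderm.

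The authors' reproducible list, made with the irreproducible discovery rate (IDR) procedure, held 7065 peaks with a median width of 270 bp. Its peaks were the first 7065 of the 30000 calls on the pooled replicates when these were ordered by signal, the authors' enrichment value per peak. Signal in the IDR list ran from 61.96 to 2844 with a median of 109. The longer lists hold weak calls that include background, per their labels, so only the IDR list was used to call a gene, and the pooled and replicate lists are given beside it. The lists carry no read depth, and signals from different lists are set side by side without being put on 1 scale.

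SMA-9 summits of the IDR list lay in the windows of 7 of the 8 genes, 16 summits in all, and bed-3 had none. Of all protein-coding genes, 39.8% had such a summit. The molting factor genes are long, with a median span of 6055 bp against 2027 bp for all genes, and a long window holds more summits. Among the 2272 genes with spans between 5444 and 13438 bp, the range of these 8, 47.0% had at least 1 summit. At least 3 summits were present at nhr-25, nhr-85 and myrf-1, which is 3 of 8, beside 5.89% of all genes and 12% of genes in the span range. Per 10 kb of window, the 8 genes together held 1.498 IDR summits, against 0.716 for all genes and 0.672 for genes in the span range. No test was made of these shares, since the genes were chosen with results of these data known.

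**Figure D1:**
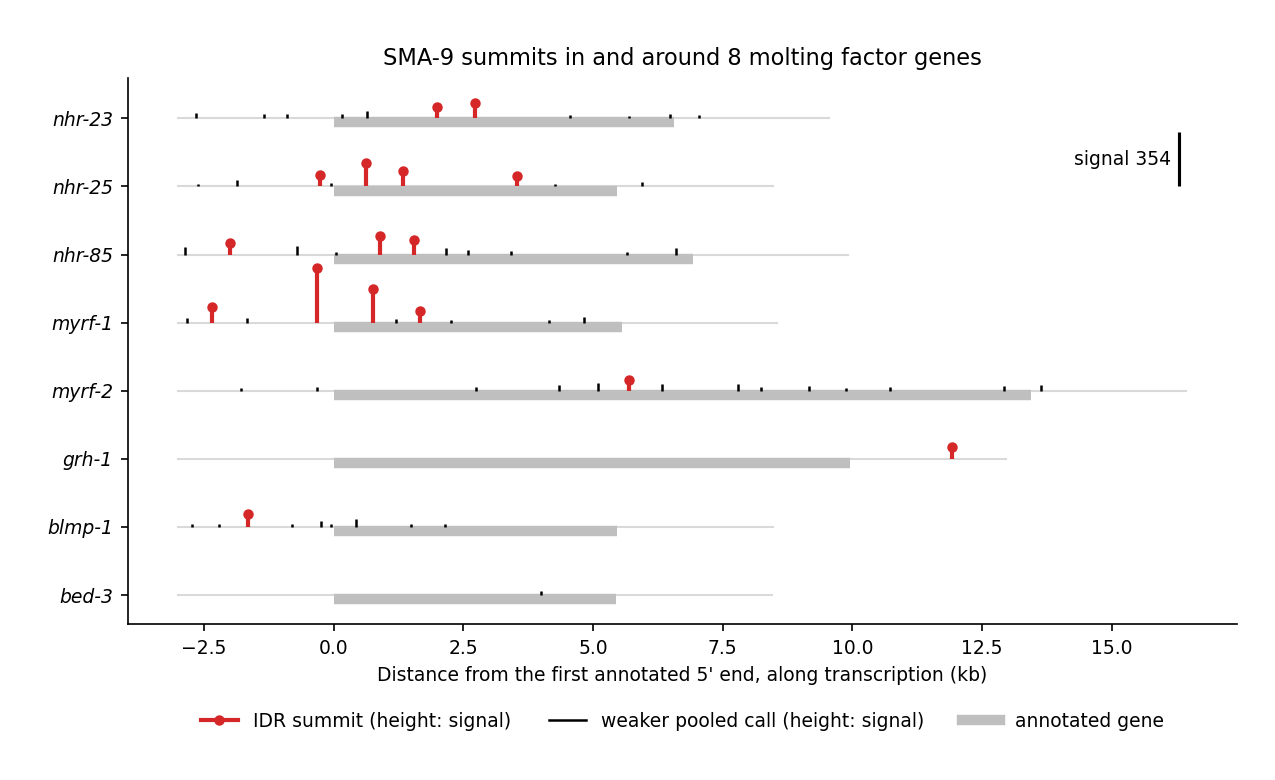
Map of the 8 genes aligned at their first annotated 5′ ends, with distance along transcription in kb; red pins are IDR summits and black ticks weaker pooled calls, with heights in proportion to signal against the scale bar of 354. The tallest pin stands upstream of myrf-1, grh-1 has its single pin beyond its 3′ end, and bed-3 has none.

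NHR-23, the relative of the insect receptor HR3 and vertebrate ROR, is required for molting, and its gene had 2 IDR summits, both in intron 1 of the 7 introns of its longest transcript. The gene spans 7214745 to 7221299 on the plus strand of chromosome I (WBGene00003622) and has 6 annotated 5′ ends. The peak at 7217336 to 7217605 had a pooled signal of 100.9, with 58.9 in replicate 1 and 36.1 in replicate 2. The peak at 7216613 to 7216882 had a pooled signal of 73.7, with 47.5 in replicate 1 and 21.9 in replicate 2. The stronger peak ranked 3784 among the calls of replicate 1 and 5624 among those of replicate 2, and the weaker one 5053 and 9897. Both pooled signals lay under the median of the IDR list, and 1 of the 2 summits was covered when the strongest 7065 calls of replicate 2 alone were used. The weaker peak had its summit 36 bp upstream of an internal 5′ end, and the stronger one 687 bp downstream of such an end.

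NHR-85 is related to insect E75 and vertebrate Rev-erb, and in C. elegans it acts with NHR-23 in pulsed transcription of the lin-4 microRNA. Its gene (WBGene00003675) spans 13055201 to 13062122 on the minus strand of chromosome I, with 3 IDR summits. The strongest, at 13061101 to 13061370 in intron 1 of 6, had a pooled signal of 120.5, 41.7 in replicate 1 and 71.3 in replicate 2. The peak at 13060440 to 13060709, in the same intron, had a pooled signal of 94.0, 61.4 in replicate 1 and 34.0 in replicate 2. The replicates thus put these neighbouring summits in opposite order. The third, 2004 bp upstream of the first 5′ end at 13063991 to 13064260, had a pooled signal of 72.9, 43.1 in replicate 1 and 34.3 in replicate 2, and it also lies in the window of the neighbouring gene hpo-2.

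NHR-25, the relative of insect FTZ-F1 and vertebrate SF-1, acts in molting and in the epidermis. Its gene (WBGene00003623) spans 13008493 to 13013964 on the plus strand of chromosome X and had 4 IDR summits, a number reached by 2.39% of all protein-coding genes. The strongest, at 13008979 to 13009248 in intron 2 of 10, had a pooled signal of 152, 87.1 in replicate 1 and 61.2 in replicate 2. Its summit was 152 bp upstream of an internal 5′ end and also lay in the noncoding RNA gene F11C1.11. The peak at 13009692 to 13009961 in intron 4 had a pooled signal of 103, 55.1 in replicate 1 and 44.5 in replicate 2. Its summit also lay in a noncoding RNA gene, F11C1.16. The peak at 13011903 to 13012172 in intron 9 had a pooled signal of 71.2, 43.2 in replicate 1 and 32.6 in replicate 2. These 3 intronic peaks fell in the same order in both replicates. The summit 254 bp upstream of the first 5′ end, at 13008104 to 13008373, differed from them. It had a pooled signal of 77.6 and 56.2 in replicate 2, but no replicate 1 call covered it, and the overlapping replicate 1 call, with its own summit 139 bp away, had a signal of 33.5. This peak also lies over the noncoding RNA genes F11C1.12 and F11C1.13.

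MYRF-1 and its paralog MYRF-2 are membrane-bound factors of the myelin regulatory factor family, which release an N-terminal fragment that enters the nucleus, and in C. elegans they act in larval development. The gene myrf-1 (WBGene00004134) spans 10496987 to 10502541 on the minus strand of chromosome II with 1 annotated 5′ end, and it had 4 IDR summits, as nhr-25 did. The strongest summit of all 8 genes was 328 bp upstream of this 5′ end, in the peak at 10502796 to 10502952. Its pooled signal was 354, which ranked 475 of the 7065 IDR peaks, with 194 in replicate 1 and 168 in replicate 2. The peak at 10501714 to 10501813 in intron 1 of 8 had a pooled signal of 217, 121 in replicate 1 and 93.1 in replicate 2. These were the strongest 2 of the 16 summits in the pooled list and in each replicate. The peak at 10504752 to 10505021, 2346 bp upstream, had a pooled signal of 100.5, 48.9 in replicate 1 and 50.6 in replicate 2, and lies also in the window of F59B10.2. The peak at 10500731 to 10501000 in intron 2 had a pooled signal of 74.8, 30.1 in replicate 1 and 39.6 in replicate 2. The order of the 4 peaks was the same in both replicates. The paralog myrf-2 (WBGene00008999), at 10180940 to 10194377 on the minus strand of chromosome X, has 10 annotated 5′ ends and had 1 IDR summit. This peak, at 10188545 to 10188814 in intron 1 of 10 and 210 bp upstream of an internal 5′ end, had a pooled signal of 69.2 and 66.9 in replicate 2. The peak also lies in the window of the neighbouring gene arrd-28. No replicate 1 call covered the summit, and the overlapping replicate 1 call, with its own summit 98 bp away, had a signal of 35.1.

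The plus-strand sequences of 101 bp centred on 3 summits of myrf-1, the strongest of nhr-25 and the only one of myrf-2 are printed because they carry the motif results given after them. They were read from the RefSeq genome of build WBcel235. Capitals mark the Smad box GTCT or its reverse complement AGAC, and in nhr-25 also the nuclear receptor half-site AGGTCA. Both myrf genes are transcribed from the other strand.
myrf-1, 328 bp upstream, chrII:10502819-10502919: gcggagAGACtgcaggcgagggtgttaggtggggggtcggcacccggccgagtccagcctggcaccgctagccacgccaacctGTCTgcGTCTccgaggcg
myrf-1, intron 1, chrII:10501726-10501826: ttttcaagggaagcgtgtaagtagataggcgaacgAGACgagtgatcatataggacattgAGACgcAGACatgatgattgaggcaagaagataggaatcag
myrf-1, intron 2, chrII:10500816-10500916: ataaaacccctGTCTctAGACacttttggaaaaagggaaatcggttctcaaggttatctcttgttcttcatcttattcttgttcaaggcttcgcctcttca
nhr-25, intron 2, chrX:13009064-13009164: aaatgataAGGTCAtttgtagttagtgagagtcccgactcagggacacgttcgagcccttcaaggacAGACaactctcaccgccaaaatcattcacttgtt
myrf-2, intron 1, chrX:10188630-10188730: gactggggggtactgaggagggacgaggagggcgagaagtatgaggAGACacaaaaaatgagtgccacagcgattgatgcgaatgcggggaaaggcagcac

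Smad proteins bind the box GTCT, and 12 of the 16 windows of 101 bp held it on either strand, or 75.0%, against 59.4% of all 7065 IDR windows of that length. At least 2 boxes were present in 5 of 16 windows, or 31.2%, against 26.1% of all. In the 3 myrf-1 sequences printed, and at the strongest nhr-85 summit, 2 boxes stood with 2 bases between them. In myrf-1 they pointed the same way in GTCTgcGTCT upstream and AGACgcAGAC in intron 1, and opposite ways in GTCTctAGAC in intron 2. Counted in either arrangement, this spacing was found in 4 of 16 windows and in 4.63% of all IDR windows. It was picked out after the sequences had been seen, so it is a description of these letters. The Smad palindrome GTCTAGAC was in 0 of 16 windows and 0.113% of all. The Schnurri type element, GNCGNC then 5 bases of any kind then GTCT, was in 0 of 16 and 0.637% of all. The palindrome and the Schnurri type element each contain a Smad box.

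The half-site AGGTCA, bound by many nuclear receptors, was in 3 of 16 windows, or 18.8%, against 4.43% of all IDR windows. These were the strongest nhr-25 summit, the second nhr-85 intron summit and the grh-1 summit. Its extended form AAGGTCA, the type bound by FTZ-F1 and ROR relatives, was in the nhr-25 window alone, 6.25% against 1.66%. In that window it overlaps a GATA site, GATAAG, which was in 1 of 16 windows, or 6.25%, against 14.5% of all. The BLMP-1 type site TTTCNNTTT was in 3 windows, 18.8% against 11.5%, and the GAGA run GAGAGAG in 1, 6.25% against 11.5%. The Grainyhead site AACCGGTT and the E-box CACGTG were in 0 of 16 windows, against 0.241% and 7.36%. All 10 motifs were searched on both strands, and a match or its absence describes these windows only.

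**Figure D2:**
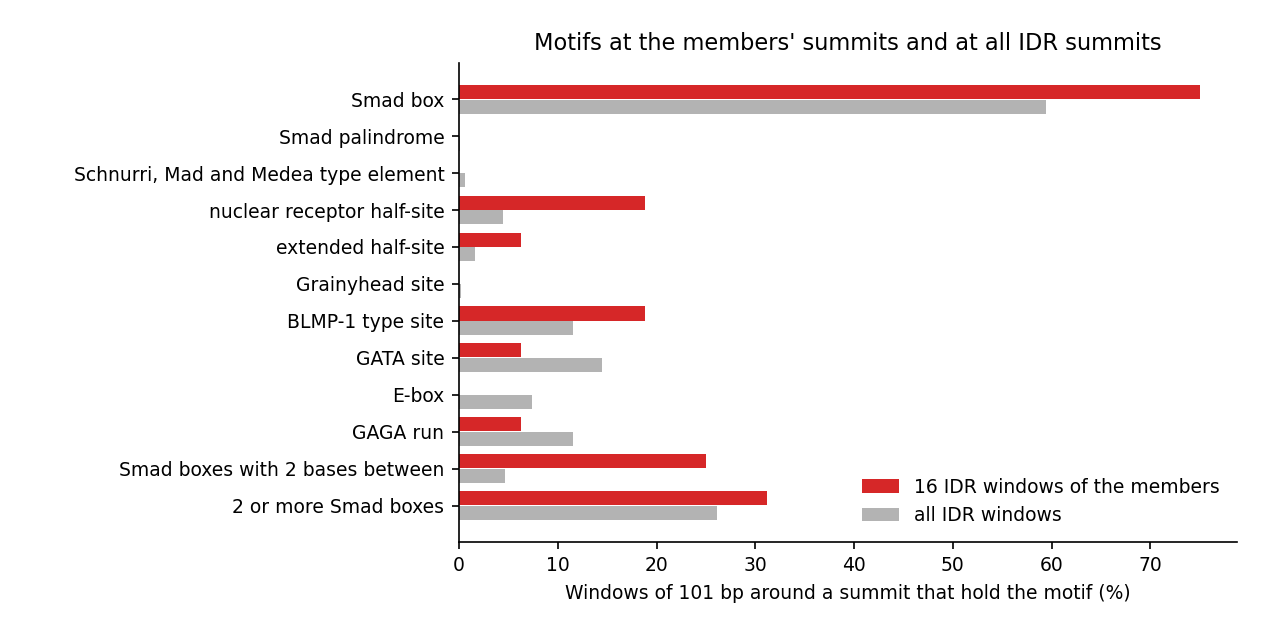
Share of windows of 101 bp around a summit that hold each motif, in percent, for the 16 summits of the molting factor genes and for all 7065 IDR summits. The Smad box is the most frequent in both, at 75.0% and 59.4%.

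The base composition of the windows varied widely. Their median GC content was 47.0%, from 37.6% to 71.3%, against a median of 43.6% over all IDR windows. The highest value belonged to the strongest window, upstream of myrf-1, and only 0.0425% of IDR windows had a GC content as high. That peak also lies over the noncoding RNA gene F59B10.7. No stretch of 25 bases from any of the 16 windows occurred at another place in the nuclear genome.

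GRH-1, the Grainyhead factor, acts in the epidermis and cuticle, and BLMP-1, related to vertebrate Blimp-1, acts in epidermal development and developmental timing. The only IDR summit of grh-1 (WBGene00001707, chromosome I, 1258201 to 1268155, minus strand) lay 1961 bp beyond its 3′ end. This peak, at 1256105 to 1256374 inside the gene Y48G8AL.15, had a pooled signal of 75.8, 56.1 in replicate 1 and 26.7 in replicate 2. It was the only pooled call of any strength in the grh-1 window. The only IDR summit of blmp-1 (WBGene00003847, chromosome I, 10409302 to 10414773, plus strand) was 1657 bp upstream of its 5′ end. This peak, at 10407510 to 10407779, had a pooled signal of 82.4, 51.5 in replicate 1 and 31.5 in replicate 2. With windows of 1000 bp neither grh-1 nor blmp-1 had an IDR summit.

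BED-3 acts in molting and in vulval cell divisions, and its gene (WBGene00009133, chromosome IV, 9916524 to 9921967, plus strand) had no IDR summit within 3000 bp. Its 1 pooled call, at 9920388 to 9920657 in an intron, had a signal of 27.0, under the lowest signal of the IDR list. Replicate 1 had a call of 13.8 over this summit and replicate 2 had none. The nearest IDR summit was 6703 bp from the gene, so occupancy at bed-3 was not detectable by the IDR list in whole L2 animals.

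By the strongest signal in the IDR list, the genes fell in the order myrf-1 at 354, nhr-25 at 152, nhr-85 at 120.5, nhr-23 at 100.9, blmp-1 at 82.4, grh-1 at 75.8 and myrf-2 at 69.2. In both replicates myrf-1 stood first by a wide margin. The strongest summits of the others changed places. The summit of myrf-2, last in the pooled list, had 66.9 in replicate 2, above those of nhr-25, nhr-23, blmp-1 and grh-1, while no replicate 1 call covered it. The summit of nhr-25 was above nhr-85 in replicate 1, with 87.1 and 41.7, and below it in replicate 2, with 61.2 and 71.3. At the strongest nhr-23, blmp-1 and grh-1 summits, replicate 1 gave 58.9, 51.5 and 56.1 and replicate 2 gave 36.1, 31.5 and 26.7. These 3 fell in the order nhr-23, grh-1, blmp-1 in replicate 1 and nhr-23, blmp-1, grh-1 in replicate 2, so the replicates do not settle the order of blmp-1 and grh-1. The 7 strongest signals had a median of 101, against 133 for all genes with an IDR summit. A summit as strong as that of myrf-1 was present at 9.93% of genes with an IDR summit, and one as strong as that of myrf-2 at 92.8%.

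**Figure D3:**
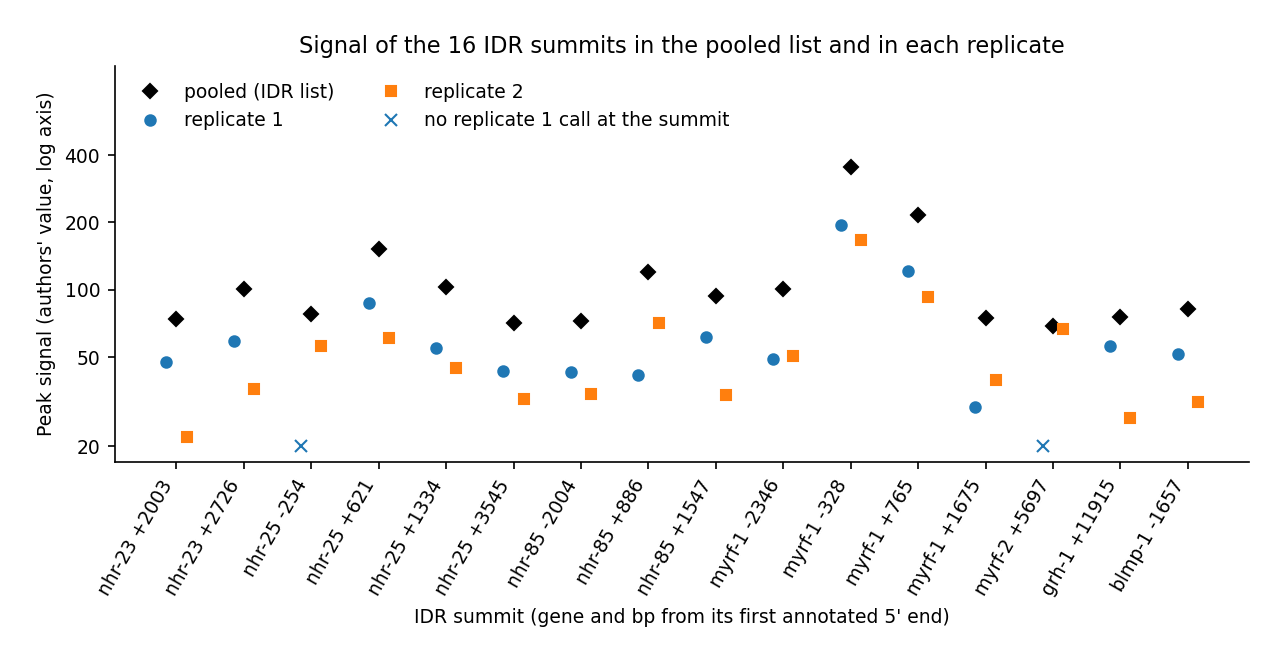
Peak signal on a log axis for the 16 IDR summits in the pooled list (black) and in replicates 1 (blue) and 2 (orange), ordered by gene and named by distance in bp from the first annotated 5′ end; crosses at the foot mark the 2 summits with no replicate 1 call and are not values. The peak 328 bp upstream of myrf-1 is highest in all 3 lists.

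The 16 signals ran from 69.2 to 354 with a median of 88.2, and 4 of 16 exceeded the median of the IDR list. Those 4 belonged to myrf-1, nhr-25 and nhr-85. A call of both replicates covered 14 of the 16 summits, whereas 95.2% of all IDR summits were so covered. Both missing calls were in replicate 1. In each replicate's strongest 7065 calls, 11 of the 16 summits were covered in both, beside 71.8% of all IDR summits.

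By place, 10 of the 16 summits were in introns, 5 were upstream, 1 was downstream and 0 were in an exon of any annotated transcript of the gene. Within 1000 bp of an annotated 5′ end of their own gene were 10 of 16, and within 500 bp 5 of 16. Of all IDR summits, 55.2% lay within 1000 bp of a protein-coding 5′ end and 40.4% within 500 bp. The median distance to such an end was 825.5 bp for the 16 and 802 bp for all. By gene, nhr-23, nhr-25, nhr-85, myrf-1 and myrf-2 had a summit within 1000 bp of an own 5′ end, 5 of 8, beside 20.2% of all protein-coding genes. These genes have 6, 3, 2, 1 and 10 annotated 5′ ends in the same order. More ends give more places for a match, and the 20.2% was not matched for their number. The nhr-23 and myrf-2 summits lay at internal ends, 2003, 2726 and 5697 bp into the gene from its first 5′ end. The summits of grh-1 and blmp-1 were farther than 1000 bp from an own 5′ end.

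The pooled list added 50 weaker calls to the 16, with signals from 16.6 to 56.2 and a median of 27.2, and 18 of these were covered by a call in both replicates. Since the list includes background, each is a candidate position and was not used to call a gene. The strongest was 712 bp upstream of nhr-85, with 56.2 in the pooled list, 31.5 in replicate 1 and 27.4 in replicate 2, and nhr-85 had another 2873 bp upstream with a pooled signal of 48.2. In blmp-1 a call 427 bp into the gene had a pooled signal of 53.2, 38.6 in replicate 1 and 26.5 in replicate 2, and a call 250 bp upstream had 39.45. In myrf-2 an intronic call had 52.4, with 15.6 in replicate 1 and 38.9 in replicate 2, and a call in a coding exon had 45.2 with no replicate 2 call over it. These myrf-2 calls were among the 14 in its window, the most of the 8 genes and in the longest window. The strongest weaker calls were 50.3 and 32.5 at nhr-23, 42.5 and 30.2 at nhr-25, and 35.1 and 28.6 at myrf-1.

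With weak calls included, the windows held 14 calls at myrf-2, 11 at nhr-23, 11 at nhr-85, 10 at myrf-1, 9 at nhr-25, 9 at blmp-1 and 1 each at grh-1 and bed-3. The median was 9.5, against 2 for all genes and 3 for genes in the span range. As many calls as at myrf-2 were found at 0.951% of protein-coding genes, and 1 or none at 43.2%. These shares were not matched for length, and the myrf-2 window was the longest of the 8, at 19.4 kb. Per 10 kb of window, myrf-2 held 7.20 calls, fewer than nhr-23 (8.76), myrf-1 (8.65), nhr-85 (8.51), nhr-25 and blmp-1 (both 7.845). Only bed-3 (0.874) and grh-1 (0.627) held fewer than myrf-2. The order by number of calls therefore differs from the order by strongest signal, in which myrf-2 was last of the 7 genes with an IDR summit.

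**Figure D4:**
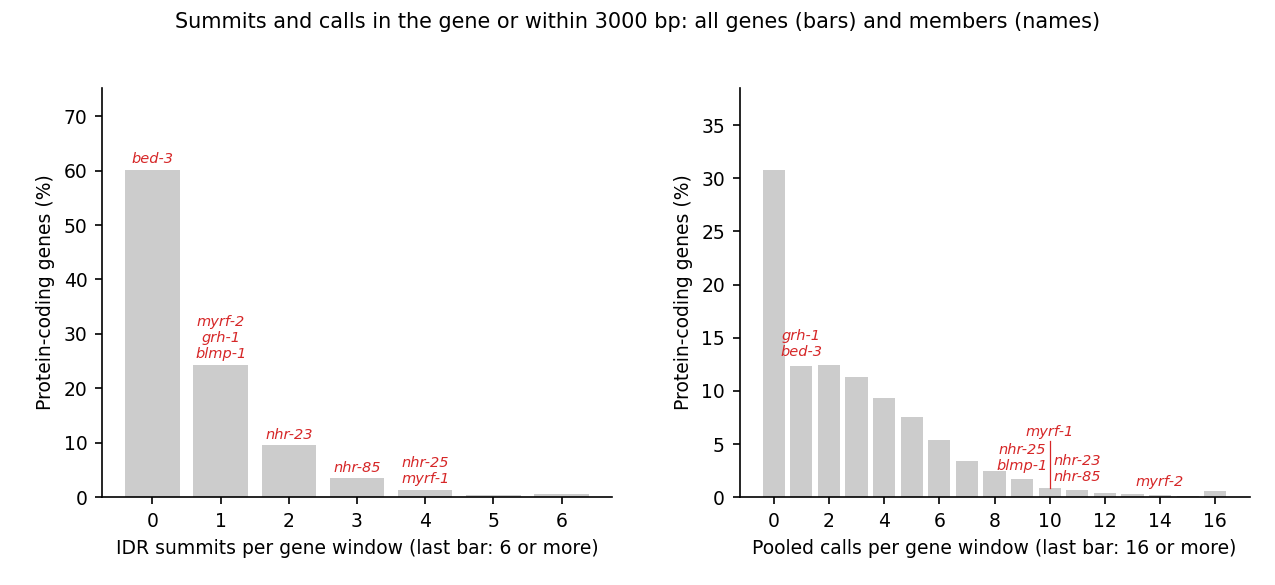
Percent of protein-coding genes by number of IDR summits (left) and pooled calls (right) in the gene or within 3000 bp, with the molting factor genes named over their bars. The genes nhr-25 and myrf-1 had 4 IDR summits, and grh-1 and bed-3 had 1 pooled call each.

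Other genes of the molting cycle, listed by role with earlier results of these data known, are set beside these. Of 12 timing and kinase genes, 7 had an IDR summit, or 58.3%, with a median of 1 summit a gene against 0 for all protein-coding genes. The strongest were at nekl-3, a NIMA-family kinase needed for molting, at kin-20, a casein kinase 1 gene, and at the microRNA gene let-7. Their pooled signals were 545 at nekl-3, 386 at kin-20 and 349 at let-7. Replicate 1 gave 295, 211 and 202 and replicate 2 gave 249, 174 and 146 in the same order. The only summits of nekl-3 and let-7 were upstream and more than 1000 bp from the gene. With windows of 1000 bp, 5 of the 12 genes had a summit, beside 26.8% of all protein-coding genes. The background of 39.8% counts protein-coding genes, and this list holds 2 microRNA genes, let-7 and lin-4. Neither lin-29 nor nekl-2, mlt-2, mlt-3 or mlt-4 had a summit, although lin-29 spans 17702 bp.

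Of 7 sterol uptake and endocrine genes, 5 had an IDR summit, or 71.4%, beside 39.8% of all protein-coding genes, with a median of 1 a gene against 0. The strongest were 302 at the nuclear receptor gene daf-12, 144 at daf-9 and 133 at the nuclear receptor gene nhr-8. The daf-9 gene encodes the cytochrome P450 of dafachronic acid synthesis, and its strongest peak lay downstream of the gene. All 4 genes listed as further relatives of insect ecdysone cascade receptors had a summit, beside the same 39.8%, with a median of 1.5 a gene. The list was not meant as a full set of such relatives. They are long genes, from 5191 bp at nhr-6 to 30968 bp at daf-12, against a median of 2027 bp for all genes. Within 1000 bp of a 5′ end, 2 of the 4 had a summit, beside 20.2% of all protein-coding genes. The strongest of the 4 relatives were daf-12, which is in both lists, nhr-91 with 208 and nhr-6 with 136. Replicates 1 and 2 gave 160 and 154 at daf-12, 108 and 103 at nhr-91, and 57.8 and 73.6 at nhr-6.

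Of 13 matrix and protease genes, 5 had an IDR summit, or 38.5%, beside the 39.8% of all genes, and the median was 0. The strongest were sym-1, a leucine-rich repeat gene, with 132, mlt-9 with 129, and noah-1, an apical matrix zona pellucida domain gene, with 128. The sym-1 and noah-1 peaks were upstream of the gene and the mlt-9 peak was downstream. Replicate 1 gave 89.0 at sym-1, 66.4 at mlt-9 and 90.2 at noah-1, and replicate 2 gave 60.5, 55.9 and 37.2. None of the 13 had 3 or more summits. These lists hold few genes and no test was made between them.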

How the data were processed

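The authors deposited peak lists per replicate, for the pooled replicates and after the IDR procedure. Per the file headers and labels the data are ChIP-seq peaks on ce11. How reads were aligned and peaks called, and at what IDR threshold, is not given in the sources used here. The deposited signal of each peak is the authors' value, ranked only within a list; values of different lists stand side by side and were not put on 1 scale. The authors' deposited −log10 q-values were carried along and not used for calling. The labels give the antibody tag as sma-9 and the text as anti-GFP. Lists on the older build ce10 were not used, since no annotation of it was at hand.

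Genes came from Ensembl release 115 (WBcel235); deposited coordinates lay within the RefSeq chromosomes. Summits were assigned with Python 3.11.15, pandas 2.3.3 and numpy 2.4.6, and figures drawn with matplotlib 3.10.9. The scripts were tested on simulated data. Gene windows reached 3000 bp beyond each end, and a replicate call counted where it covered the IDR summit. Motifs were counted in windows of 101 bp. A peak list gives no read depth, so its precision is unknown, and 2 replicates allow no error beyond both values.

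The members and lists were chosen with earlier results of these data known. All 8 members were named with every IDR summit. Given with them were the strongest 2 weaker pooled calls of each (up to 3 for a member without an IDR summit). The strongest 3 genes of each other list were also named. Genes outside this rule were named where they had no summit, or where they overlapped or neighboured one. Naming of lin-4 was for its biotype and as background to NHR-85. The microRNA genes lin-4 and let-7 were matched through RefSeq names. Alternatives were windows of 1000 and 5000 bp, the neighbourhood of 5′ ends, the stronger part of the IDR list, peak overlap, each replicate alone, genes of matched span and wider motif windows.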

Additional observations from a re-analysis of the deposited data

How the results depend on the processing

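Of 79 values recomputed under the alternatives, 68 stayed within their limits (a factor of 1.5 for counts) and 11 did not. With only summits within 1000 bp of a 5′ end, the members' summits fell to 10, the share of all genes to 20.2%, matrix and protease genes to 2 and ecdysone receptor relatives to 2; with windows of 1000 bp the matrix and protease genes also fell to 2. Under both settings grh-1 and blmp-1 had no summit left, so 5 members were called and no strongest signal of these 2 could be counted. The share of all protein-coding genes called was 20.2% near 5′ ends and 26.8% with windows of 1000 bp. These settings admit fewer summits by construction. With windows of 5000 bp the strongest signal of myrf-2 became 338. Among the IDR peaks at or above the list's median signal, 3 members, 4 summits and 25.2% of all genes were left. In windows of 201 bp the half-site AGGTCA was found at 7 summits and the GAGA run at 2, against 8.45% and 18.6% of all IDR windows. Using 1 replicate's strongest 7065 calls, 6 members (16 summits) were called without replicate 1, beside 40.2% of all protein-coding genes. The figures were 7 members (17 summits) and 39.5% without replicate 2. Without replicate 1, grh-1 went from 1 summit to 0, nhr-23 from 2 to 1, nhr-85 from 3 to 4 and myrf-2 from 1 to 2. Without replicate 2, myrf-1 went from 4 to 3, and myrf-2 and blmp-1 from 1 to 2. Read depth, which is not in these lists, limits every statement on weak calls and on bed-3.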

Other observations

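Several IDR summits lay just outside the windows of 3000 bp and were not counted. The strongest, with a pooled signal of 338, was 3079 bp upstream of myrf-2 and 250 bp from a 5′ end of the neighbouring gene nucb-1, at 10197381 to 10197551 on chromosome X. Another was 4487 bp downstream of myrf-2 with 113.9, 68 bp from a 5′ end of ncs-4. A peak of 69.3 was 3045 bp upstream of grh-1 and 316 bp from a 5′ end of Y48G8AR.8. Between 3583 and 4282 bp upstream of the gene were peaks of 71.5 for nhr-25, 73.0 for nhr-85, 86.6 for myrf-1 and 84.2 for blmp-1. Of these, 2 were nearer a 5′ end of another gene. The peak of 73.0 was 790 bp from one of hpo-2, and that of 84.2 was 3956 bp from one of tag-353. Of the counted summits outside a gene, the farthest were 2346 bp upstream of myrf-1 with 100.5, 2004 bp upstream of nhr-85 with 72.9 and 1961 bp beyond grh-1 with 75.8.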
